A study of Mus musculus with 8 samples.

Results

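The nuclei described here are the 261 that carry the deposited label inhibtory neurons 15, spelled so in the metadata tables, of 29425 nuclei in 21 labelled clusters. They were chosen by that label alone. Their transcripts go against it: the nuclei held the vesicular glutamate transporter transcript *Slc17a7* and almost none of the GABA synthesis and transport transcripts, so they are called cluster 15 in what follows. The nuclei came from 2 *Gfap-Cre;Wlsfl/-* (mutant) and 2 *Gfap-Cre;Wlsfl/+* (control) hippocampus libraries, each made from both hippocampi of 1 adult male mouse of about 12 weeks. All 4 mice carried the *Gfap-Cre* transgene, in which the *Gfap* promoter drives Cre recombinase in a subset of neural progenitors, and 1 floxed allele of *Wls* (chr3:159839672-159938664, plus strand, GRCm38/mm10), which encodes the carrier needed for secretion of Wnt proteins. The other allele was null in mutants and intact in controls, so that control cells with Cre activity kept 1 copy. Bulk RNAseq of whole hippocampus was made from 2 mutant and 2 control mice of the same genotypes.

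Excitatory neurons of the forebrain load glutamate into synaptic vesicles with the transporters encoded by *Slc17a7* (VGLUT1) or *Slc17a6* (VGLUT2). Inhibitory neurons instead make GABA with glutamate decarboxylases (*Gad1* and *Gad2*) and load it with the transporter encoded by *Slc32a1*. *Ntng1* encodes netrin-G1, a membrane-anchored relative of the netrins that sits on axons and binds the postsynaptic adhesion protein NGL-1, the product of *Lrrc4c*. *Ntng1* is widely known from thalamic projection neurons, and *Qrfpr* encodes the receptor for the neuropeptide QRFP.

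Cluster 15 held 143 nuclei in mutant 1, 102 in mutant 2, 15 in control 1 and 1 in control 2. Their median depth was 4989, 7787, 8659 and 18475 UMIs (unique molecular identifiers, each counting 1 captured transcript), and the shallowest nucleus had 1524. The summed UMIs of the cluster were 781789, 858409, 136782 and 18475, and these sums, scaled to CPM (UMIs of a transcript per 1000000 UMIs of the sum), are the levels given below. Control 2 is a single nucleus in which 1 UMI is worth 54.1 CPM, so cluster means are over the other 3 libraries. None of the 261 nuclei had a barcode found in a second library, although 87 of 29338 barcodes in all were shared. The UMIs are counted at transcript 3′ ends, so each transcript is compared between clusters and not with other transcripts. The comparison of the cluster with other clusters has no test, because the nuclei were clustered on the same transcripts.

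*Ntng1* (chr3:109780040-110144011, minus strand) was detected in 100% of cluster 15 nuclei in every library. Its level was 2992 CPM in mutant 1, 2538 in mutant 2, 2530 in control 1 and 2598 in control 2. The 4 libraries thus lay close together, including the control library with 1 nucleus. The mean of 2687 CPM was 5.17 times that of the next cluster, the endothelial cells at 520.0 CPM. The next neuronal clusters were excitatory neurons 10 at 469, dentate granule cells at 468 and inhibitory neurons 5 at 434 CPM.

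*Qrfpr* (chr3:36179424-36222313, minus strand) was a sparser marker. It reached 265 CPM in mutant 1, 107 in mutant 2 and 219 in control 1, from 207, 92 and 30 UMIs. The nucleus of control 2 had no UMI, which allows up to 162 CPM. At least 1 *Qrfpr* UMI was found in 66.4%, 58.8% and 80.0% of nuclei in mutant 1, mutant 2 and control 1, and in 22.4%, 17.6% and 13.3% once each nucleus was thinned to 1500 UMIs. The mean level was 7.27 times that of excitatory neurons 10 (27.1 CPM), the next cluster. Outside the cluster the transcript was still present: cluster 15 supplied 59.8% of all *Qrfpr* UMIs in the mutant 1 library, 27.3% in mutant 2, 24.6% in control 1 and none in control 2. *Ntng1* and *Qrfpr* together therefore marked the cluster, while most *Qrfpr* UMIs of 3 libraries lay in other nuclei.

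*Slc17a7* (chr7:45163949-45176142, plus strand) placed the nuclei among glutamatergic neurons. Its level was 130.5 CPM in mutant 1, 183 in mutant 2, 146 in control 1 and 217 in control 2. The transcript was found in 47.6%, 80.4%, 73.3% and 100% of cluster 15 nuclei. In the GABAergic cluster inhibitory neurons 5, at median depths of 4155, 7656, 7465 and 10925 UMIs, the shares were 10.3%, 21.3%, 12.6% and 21.8%. The share in cluster 15 was thus above that of inhibitory neurons 5 in every library, control 2 being a single nucleus. The mean level of 153 CPM was 4.54 times the level in inhibitory neurons 5. Other backgrounds were higher, at 99.1 CPM in choroid plexus nuclei, 83.9 in endothelial cells, 65.6 in inhibitory neurons 14 and 61.3 in oligodendrocytes. Cluster 15 ranked 10th of the 21 clusters for *Slc17a7*. It was below the CA1, CA2, CA3, mossy cell and dentate granule cell clusters and below excitatory neurons 7, 8, 10 and 13. Of these, excitatory neurons 7 had the lowest level (214 CPM) and excitatory neurons 8 the highest (339 CPM). The second glutamate transporter, *Slc17a6*, was at 15.3, 19.8, 14.6 and 0 CPM, against 82.4 CPM in excitatory neurons 7.

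*Gad1*, *Gad2* and *Slc32a1* were near background. *Gad1* had 7.67 CPM in mutant 1, 9.32 in mutant 2, 7.31 in control 1 and 0 in control 2. *Gad1* was found in 2.80%, 5.88%, 6.67% and 0% of cluster 15 nuclei, below the shares in excitatory neurons 10 (3.85%, 8.42%, 9.46% and 10.0%) and far below those in inhibitory neurons 5 (53.4%, 70.1%, 73.2% and 80.8%). *Gad2* was at 3.84, 6.99, 0 and 0 CPM and *Slc32a1* at 2.56, 3.49, 0 and 0 CPM. In inhibitory neurons 18, where all 3 were highest, the levels were 557, 877 and 142 CPM. The 10 transcripts of the GABAergic list summed to 208, 348, 102 and 54.1 CPM in the 4 libraries. *Adarb2*, an interneuron marker that encodes an RNA-binding relative of the RNA editing enzymes, had a mean of 133 CPM and *Erbb4*, a neuregulin receptor of interneurons, a mean of 47.4 CPM. The same transcripts reached 7144 CPM (*Adarb2*) and 8945 CPM (*Erbb4*) in inhibitory neurons 18. *Adarb2* was at 114, 206 and 80.4 CPM in cluster 15 of mutant 1, mutant 2 and control 1. In excitatory neurons 10 it was at 18.4, 71.2 and 95.6 CPM, so both mutants were above that background.

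**Figure D1:**
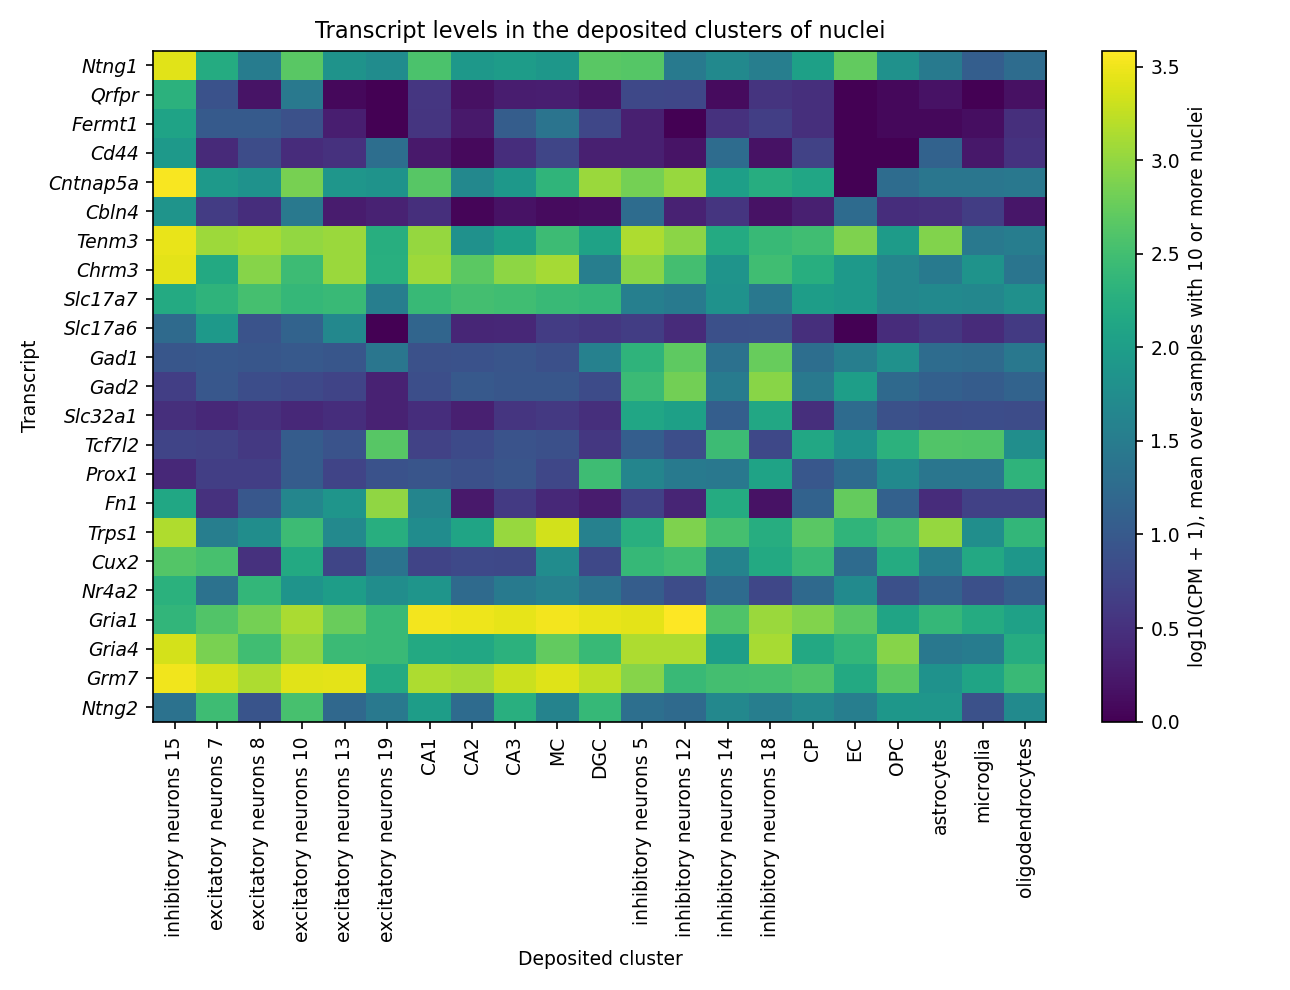
Levels of 23 transcripts (rows) in the 21 deposited clusters (columns), as log10 of mean CPM plus 1 over libraries with at least 10 nuclei in the cluster. Cluster 15, in the first column, has the highest *Ntng1* and *Qrfpr* and holds *Slc17a7*, whereas *Gad1*, *Gad2* and *Slc32a1* are high in inhibitory neurons 5, 12 and 18.

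Cluster 15 made up 13.9%, 6.16%, 2.58% and 0.152% of the nuclei that carry an inhibitory label in mutant 1, mutant 2, control 1 and control 2. Nuclei with any of the 5 inhibitory labels were 19.4%, 15.8%, 8.997% and 9.12% of each library, and without cluster 15 they were 16.7%, 14.9%, 8.76% and 9.11%. The ratio of the mutant to the control mean went from 1.94 to 1.76 when cluster 15 was left out. Both mutant libraries stayed above both control libraries either way, and the exact two-sided permutation p was 0.333, the smallest that 2 against 2 libraries can give. The remaining labels still included inhibitory neurons 14, where *Gad1*, *Gad2* and *Slc32a1* were at 20.6, 29.7 and 10.9 CPM. In inhibitory neurons 5 they were at 216, 279 and 132 CPM. These shares and ratios therefore describe labels and not GABAergic neurons.

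Of 3468 transcripts with at least 50 CPM in cluster 15, 197 had their highest mean level of all clusters there. The margin was above 2-fold for 18 of them and above 5-fold for 5. The largest ratio to the next cluster was 12.6, for the unnamed transcript *Gm20063*, and the second was 9.71, for *Gm6602*. *Qrfpr* and *Ntng1* followed. Of the first 20 transcripts by this ratio, 18 were highest in cluster 15 in mutant 1, mutant 2 and control 1 separately. Only clusters with at least 10 nuclei in the library were compared. The exceptions were *Ptger3*, which encodes a prostaglandin E2 receptor, in control 1 and *Rxfp1*, which encodes the relaxin receptor, in mutant 2. The 20 were ranked on the means of these same 3 libraries, so the count is largely set by the ranking and is no test.

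*Cntnap5a* (chr1:115684756-116587323, plus strand), a contactin-associated protein gene of the neurexin superfamily, had 3995, 3501, 2976 and 2057 CPM in mutant 1, mutant 2, control 1 and control 2. Its mean of 3490 CPM was 3.13 times that of the dentate granule cells (DGCs), the next cluster. *Tenm3*, which encodes the adhesion protein teneurin-3, had 2479, 2700.3 and 3641 CPM in mutant 1, mutant 2 and control 1 but 54.1 CPM, from 1 UMI, in the nucleus of control 2. The mean was 2.15 times that of inhibitory neurons 5. *Cd44* (chr2:102811141-102901665, minus strand), which encodes the hyaluronan receptor, had 104, 86.2, 65.8 and 162 CPM, a mean 4.51 times that of the next cluster. *Fermt1* (chr2:132904389-132945906, minus strand), which encodes the integrin activator kindlin-1, had 139, 96.7, 117 and 54.1 CPM, with mossy cells next at 22.9 CPM.

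*Chrm3*, which encodes the muscarinic acetylcholine receptor M3, had 2686, 2283, 3114 and 2057 CPM, and its mean was 2.12 times that of mossy cells. *Plch1*, which encodes a phospholipase C, had 212, 238, 285 and 271 CPM. *Cbln4*, which encodes a secreted synapse organizer of the cerebellin family, had 44.8, 72.2, 95.0 and 54.1 CPM, 2.57 times the mean level of the next cluster. *Grm4*, a presynaptic metabotropic glutamate receptor gene, was at 62.7, 110 and 51.2 CPM in mutant 1, mutant 2 and control 1, with a ratio of 1.95 to the next cluster. The zinc finger transcription factor gene *Ovol2* had 43.5, 48.9 and 110 CPM in the same libraries, so that control 1 lay more than 2-fold above both mutants.

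**Figure D2:**
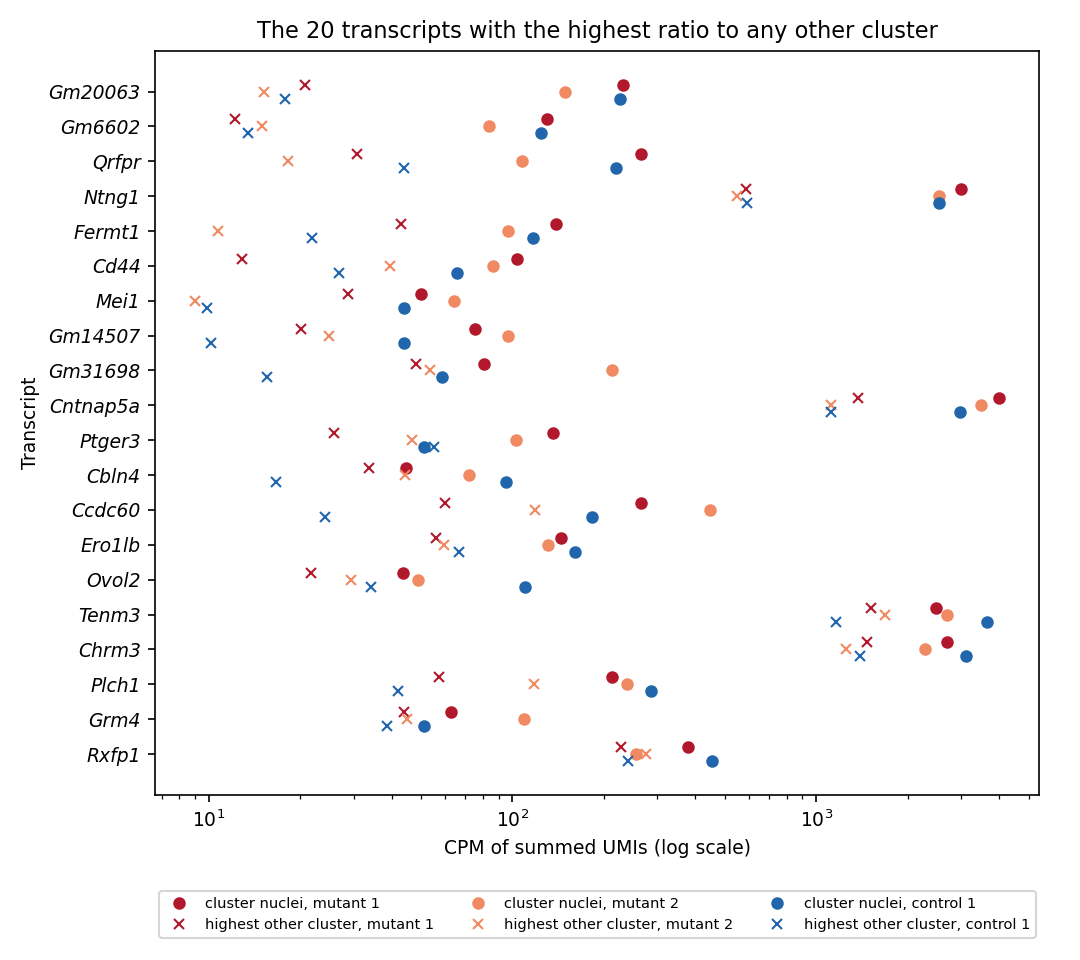
Levels in CPM (log scale) of the 20 transcripts with the highest ratio to any other cluster, by library. Circles are cluster 15 nuclei and crosses the highest other cluster of the same library. Circles lie to the right of the crosses in all 3 libraries for 18 of the 20 transcripts. The transcripts were ranked on the means of these same libraries.

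Marker lists of other cell types and regions gave no region a full set. Of the 11 dorsal thalamus markers in the tables, 3 reached 50 CPM: *Ntng1*, the nuclear receptor gene *Rora* (1659, 1649.6, 1784 and 649.5 CPM) and *Plekhg1* (113, 61.7, 65.8 and 108 CPM). *Rora* was higher in 5 other clusters. *Tcf7l2*, a transcription factor gene that defines thalamic neurons, had 3.84, 9.32, 0 and 0 CPM. The level of *Tcf7l2* was highest, at 456 CPM, in the nuclei labelled excitatory neurons 19. These held little *Slc17a7* (32.7 CPM) and no *Slc17a6* (0 CPM), so that label is not taken here as glutamatergic. Astrocytes had 406 and microglia 399 CPM of *Tcf7l2*. The high *Ntng1* of cluster 15 was thus not accompanied by this thalamic marker.

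The subiculum list had 2 of 7 members at 50 CPM or above, *Cbln4* and *Fn1*, which encodes fibronectin (98.5, 123, 190.1 and 0 CPM). The entorhinal list also had 2 of 6, the transcription factor genes *Trps1* (1622, 1312, 1367 and 1894 CPM) and *Cux2* (376, 549.9, 329 and 595 CPM). *Cux2* was highest in cluster 15 (mean 418 CPM) and *Trps1* second to mossy cells (1434 against 2218 CPM). The other entorhinal markers were low, among them the secreted glycoprotein gene *Reln* at 24.3, 34.9, 0 and 54.1 CPM. *Nr4a2*, an orphan nuclear receptor gene of the claustrum list, had 216, 198, 168 and 54.1 CPM, second to excitatory neurons 8 (233 CPM on average). *Tshz2*, a zinc finger gene of retrosplenial neurons, had a mean of 500.5 CPM against 2984 CPM in excitatory neurons 13. Neocortical layer 6 markers, summed to 162, 128, 227 and 54.1 CPM, were far below excitatory neurons 13 (4690.3 CPM), and the habenula list, at 142, 115, 139 and 54.1 CPM, was below mossy cells (522 CPM). The septal cholinergic list summed to at most 3.49 CPM. The neocortical layer 5 list had 3 of 6 members at 50 CPM or above and the CA1 list 3 of 7. None of these was highest in cluster 15. The list of neocortical layers 2/3 and 4, which also holds *Cux2*, had 1 of 6. In no region list was more than 1 member highest in cluster 15, and the nuclei were given no region name.

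The CA1 list summed to 785, 643, 695 and 433 CPM in mutant 1, mutant 2, control 1 and control 2, against 1153 CPM in the CA1 cluster. The CA2, CA3, Cajal-Retzius and DGC lists were lower. The CA3 list summed to 2.56, 15.1, 0 and 0 CPM in mutant 1, mutant 2, control 1 and control 2, the CA2 list to 42.2, 36.1, 65.8 and 0 CPM, and the Cajal-Retzius list to 34.5, 52.4, 0 and 54.1 CPM. The DGC list of 7 transcripts summed to 14.1, 29.1, 146 and 0 CPM. Its defining transcription factor gene *Prox1* had 1.28, 3.49, 0 and 0 CPM and *Dsp*, the desmoplakin gene, had no UMI in any of the 261 nuclei. In control 1 most of the sum came from *Stxbp6*, a syntaxin-binding protein gene (80.4 CPM, 11 UMIs in 2 of 15 nuclei), and *Glis3*, a zinc finger gene (51.2 CPM, 7 UMIs in 1 nucleus). The part of DGC transcripts in other results of control 1 was not tested. Transcripts of non-neuronal cells were also low beside their own clusters. The astrocyte list summed to 427, 525, 526 and 271 CPM against 12154 CPM in astrocytes, the oligodendrocyte list to 123, 221, 87.7 and 271 CPM against 21318 CPM, and the microglia list to 85.7, 103, 80.4 and 0 CPM against 8685 CPM. The choroid plexus list summed to 17.9, 62.9, 36.6 and 0 CPM against 14555 CPM, and the endothelial list to at most 7.31 CPM.

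The 17 ionotropic glutamate receptor transcripts summed to 10664, 9613, 9731 and 12016 CPM in mutant 1, mutant 2, control 1 and control 2, 10th of the 21 clusters, and 1 of them was highest in cluster 15. This was *Gria4*, an AMPA-type subunit gene, which had 2636, 1658, 2559 and 1461 CPM in mutant 1, mutant 2, control 1 and control 2. Its mean of 2284 CPM was the highest of all clusters, with 1405 CPM in inhibitory neurons 5 and 1390 in inhibitory neurons 12. *Gria1*, the subunit gene that is abundant in hippocampal pyramidal cells, had 215, 315, 161 and 325 CPM. Its mean of 230.1 CPM ranked 18th of 21 clusters, compared with 3339 CPM in CA1 and 3838 CPM in inhibitory neurons 12. *Gria2*, the subunit gene that limits calcium entry, was intermediate at 1344 CPM.

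The kainate receptor subunit gene *Grik1*, high in interneurons, was at 8.95, 22.1, 0 and 0 CPM, against 2612 CPM in inhibitory neurons 18. The 7 metabotropic glutamate receptor transcripts summed to 7224, 6581, 6529 and 6982 CPM, the highest sum of all clusters, with excitatory neurons 13 next at 6386 CPM. *Grm7*, a presynaptic receptor gene, made up the largest part with 3340, 3174, 3261 and 2598 CPM. *Grm2* and *Grm4* were also highest in cluster 15, and *Grm5* was second to CA1 (2625 against 2836 CPM). The list of GABA-A receptor subunits ranked 7th of the 21 clusters by its sum. Among them *Gabra5* was at 262, 142, 139 and 325 CPM, and its mean of 181 CPM was the highest of all clusters, with CA2 next at 162 CPM. Of 23 neuropeptide receptor transcripts, *Qrfpr* and the cholecystokinin B receptor transcript *Cckbr* (mean 38.9 CPM) were highest there, and *Sstr4*, *Oprk1* and *Galr1* had no UMI.

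The second netrin-G gene, *Ntng2*, was low: 12.8, 30.3, 21.9 and 0 CPM in mutant 1, mutant 2, control 1 and control 2, against 349 CPM in excitatory neurons 10. *Lrrc4c*, the gene of the netrin-G1 receptor NGL-1, had 1463, 1094, 687 and 2219 CPM and was higher in 8 other clusters. Of 39 Wnt signalling transcripts in the tables, 8 had no UMI in cluster 15 and 3 were highest there (*Rspo2*, *Fzd3* and *Wnt10a*, the last at 6.12 CPM). *Rspo2*, which encodes an R-spondin that enhances Wnt signalling, had 243, 240.0, 87.7 and 325 CPM. *Fzd3*, a Frizzled receptor gene, had 105, 83.9, 219 and 217 CPM. *Wls* itself had only 3, 5, 2 and 0 UMIs in the cluster, too few to compare genotypes there. Over all nuclei *Wls* was at 6.96 and 11.7 CPM in the mutant libraries and at 20.7 and 27.4 CPM in the controls.

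The deposited clusters most like cluster 15 were excitatory ones. Over 15464 transcripts with at least 10 CPM in some cluster, Spearman's rho of mean levels was 0.943 with excitatory neurons 10, 0.941 with excitatory neurons 7, 0.928 with CA1 and with excitatory neurons 8, 0.905 with inhibitory neurons 5 and 0.888 with inhibitory neurons 12. These are descriptions across genes from shared libraries. Against excitatory neurons 10, 29 of 3556 transcripts were more than 3-fold higher in cluster 15 in mutant 1, mutant 2 and control 1 alike, and 52 were more than 3-fold lower. The higher ones included *Plch1* (245 against 4.71 CPM), *Rxfp1* (362 against 16.3 CPM), the insulin-like growth factor binding protein gene *Igfbp5* (168 against 9.65 CPM) and the zinc finger gene *Zfp804b* (2203 against 144 CPM). The lower ones included the extracellular matrix gene *Dcn* (2.09 against 115 CPM) and the noncoding RNA gene *Rmst* (3.61 against 173 CPM).

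Against excitatory neurons 7, 48 of 3591 transcripts were more than 3-fold higher and 52 lower in each of the 3 libraries. The higher ones included *Fn1* (137 against 2.30 CPM), the ligand genes *Kitl* (316 against 6.44 CPM) and *Angpt1* (161 against 3.73 CPM), *Trps1* (1434 against 33.2 CPM) and *Cntnap5a* (3490 against 86.0 CPM). *Ntng1* was 17.1-fold and *Chrm3* 17.8-fold higher than there. The lower ones included *Rmst* (3.61 against 437 CPM), the transcription factor gene *Tox* (10.9 against 896 CPM) and the kainate receptor gene *Grik3* (3.76 against 117 CPM). Each nucleus was also matched to the cluster profile it resembled most, with profiles built without its own library: 143 of 143, 95 of 102, 15 of 15 and 1 of 1 labelled nuclei matched cluster 15. Another 12 nuclei in mutant 1, 9 of them labelled CA1, and 1 in control 1 matched it under another label. The labels came from clustering the libraries together on the same transcripts, so this match is not an independent check of them.

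The 261 nuclei were not uniform. Clustering them alone gave 4 subgroups of 94, 73, 71 and 23 nuclei, called A to D here and named only by their leading transcripts. Subgroup A held 61 nuclei of mutant 1, 32 of mutant 2, none of control 1 and the nucleus of control 2. Subgroup B held 55, 3, 15 and 0, subgroup C held 19, 52, 0 and 0, and subgroup D held 8, 15, 0 and 0. All 15 nuclei of control 1 were thus in B, where 55 of the other 58 nuclei were from mutant 1. *Ntng1* was found in 100% of nuclei of each subgroup, at 2352 to 3166 CPM per subgroup and library with at least 8 nuclei.

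Subgroup A was led by *Gm30382*, the adhesion gene *Edil3*, *Slc35f1* and *Grm8*, a presynaptic glutamate receptor gene. *Grm8* had 496 CPM in mutant 1 and 481 in mutant 2, and at most 237 CPM in any other subgroup. *Dcc*, the netrin-1 receptor gene, was at 896 and 800.2 CPM in A and at 92.0 and 67.4 CPM in C. *Tenm3* ran the other way: 986 CPM in mutant 1 and 670.3 in mutant 2 in A, 4205 in mutant 1 and 3641 in control 1 in B, and 4389 in mutant 1 and 4602 in mutant 2 in C. The level of this adhesion gene over the whole cluster therefore averaged subgroups that differed more than 4-fold in both mutants.

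Subgroup B was led by *Rph3a*, which encodes the synaptic vesicle protein rabphilin-3A (92.6 CPM in mutant 1 and 132 in control 1), followed by *Efna5*, which encodes the guidance ligand ephrin-A5, and the protocadherin gene *Pcdh7*. *Efna5* was at 527 CPM in mutant 1 and 907 in control 1, and *Pcdh7* at 543 and 870.0 CPM. Subgroup C was led by *Gm26883* (1038 CPM in mutant 1 and 708 in mutant 2), *Fn1* (184 and 264 CPM), *Zfpm2*, a zinc finger cofactor gene (328 and 227 CPM), and *Tshz2* (933 and 893 CPM). Subgroup D was set apart least. It was led by *Ahdc1* (128 CPM against 55.6 in the other nuclei of the cluster), *Orc6* (102 against 45.6) and *Wwp1* (143 against 66.2). Its largest ratio was 2.28, below the largest of A (10.6), B (5.03) and C (3.39). Several transcripts named for the subgroups were higher in excitatory neurons 10. There, mutants 1 and 2 had *Grm8* at 619 and 714, *Dcc* at 3341 and 2706 and *Tshz2* at 1117 and 1547 CPM. *Edil3*, *Slc35f1* and *Pcdh7* were also higher there, as was *Gm26883* in mutant 2. *Gm30382*, *Rph3a*, *Efna5*, *Fn1*, *Zfpm2*, *Ahdc1*, *Orc6* and *Wwp1* were lower there. Scrublet marked 8 nuclei of the cluster as possible doublets, all of them among the 32 nuclei of mutant 2 in subgroup A. It marked 6.58% of all nuclei in the mutant 2 library. In the mutant 1 library it marked 0.0377%, so it gave no usable doublet call there. The median Scrublet score of cluster nuclei was 0.0689 in control 1, against 0.0265 for the whole library, and 0.0678 against 0.0194 in control 2. In mutants 1 and 2 it was 0.00891 against 0.0200 and 0.0127 against 0.0135. The part of doublets in subgroup A or in the control 1 values was not tested.

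**Figure D3:**
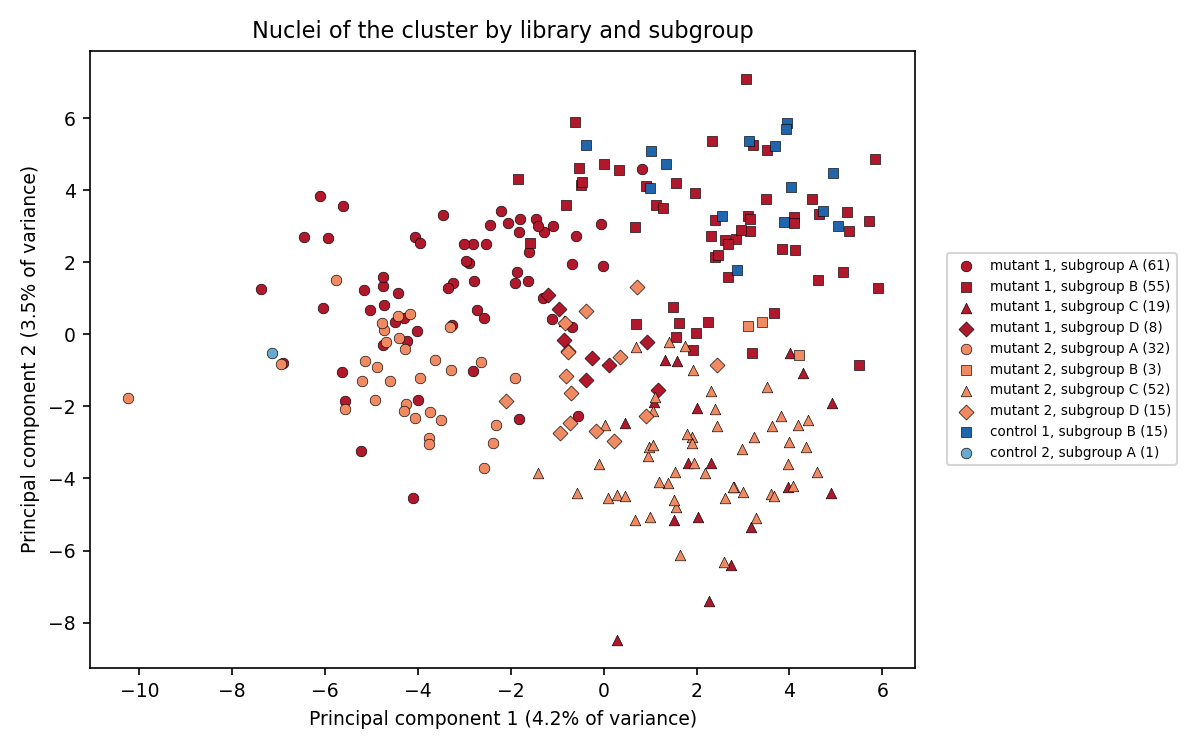
The 261 nuclei on the first 2 principal components of their own variable transcripts (4.17% and 3.53% of variance), with colour for library and shape for subgroup. The 15 nuclei of control 1 (dark blue squares) lie among subgroup B nuclei of mutant 1, at the right and top, and the nucleus of control 2 lies at the left among subgroup A.

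The number of nuclei differed between genotypes and between mice. Cluster 15 was 2.70% of nuclei in mutant 1 (143 of 5304, exact binomial 95% interval 2.28 to 3.17%), 0.975% in mutant 2 (102 of 10460, 0.796 to 1.18%), 0.232% in control 1 (15 of 6469, 0.130 to 0.382%) and 0.0139% in control 2 (1 of 7192, 0.000352 to 0.0774%). The intervals cover counting error only. Both mutants were above both controls, the lower mutant share being 4.21 times the higher control share, while the mutants differed from each other by 2.76 times. The group means were 1.84% and 0.123%, a ratio of 14.9, and the exact two-sided permutation p was 0.333, the smallest possible here.

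In edgeR's quasi-likelihood test on nuclei per cluster, cluster 15 had a log2 fold change of 3.89 (SE 1.47, unadjusted p 0.0543), with a Benjamini-Hochberg adjusted p of 0.276. It did not pass the threshold of 0.05. None of the 21 clusters was called (0%), 2 were below an unadjusted p of 0.05, and DESeq2 called 3, cluster 15 among them with a log2 fold change of 3.91 and an adjusted p of 0.0245. Excitatory neurons 10, the most similar cluster, showed the same order of libraries: 5.39% and 3.52% of nuclei in the mutants and 1.14% and 0.556% in the controls (log2 fold change 2.39, SE 0.64, edgeR quasi-likelihood adjusted p 0.201). Leaving out 1 library moved the log2 fold change of cluster 15 to 6.88 without control 1 and to 2.97 without control 2, in edgeR's fits with adjusted p of 0.193 and 0.968.

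DGC nuclei numbered 4343 in the control libraries and 553 in the mutants, which moves every share of the total. Leaving DGC nuclei out of the total, cluster 15 was 2.74%, 1.02%, 0.363% and 0.0193% of the remaining nuclei and the ratio of the means was 9.84. The libraries kept their order. A share also depends on which tissue was dissected and on which nuclei were captured. Choroid plexus nuclei numbered 184 in the mutant libraries and 9 in the controls (log2 fold change 3.66, SE 2.75, edgeR quasi-likelihood adjusted p 0.500). In bulk, the choroid plexus transcript *Ttr* was at 632 and 4985 CPM in mutants and 84.7 and 31.8 CPM in controls. Dissection and capture cannot be told apart from genotype with 1 library per mouse and 2 mice per genotype.

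**Figure D4:**
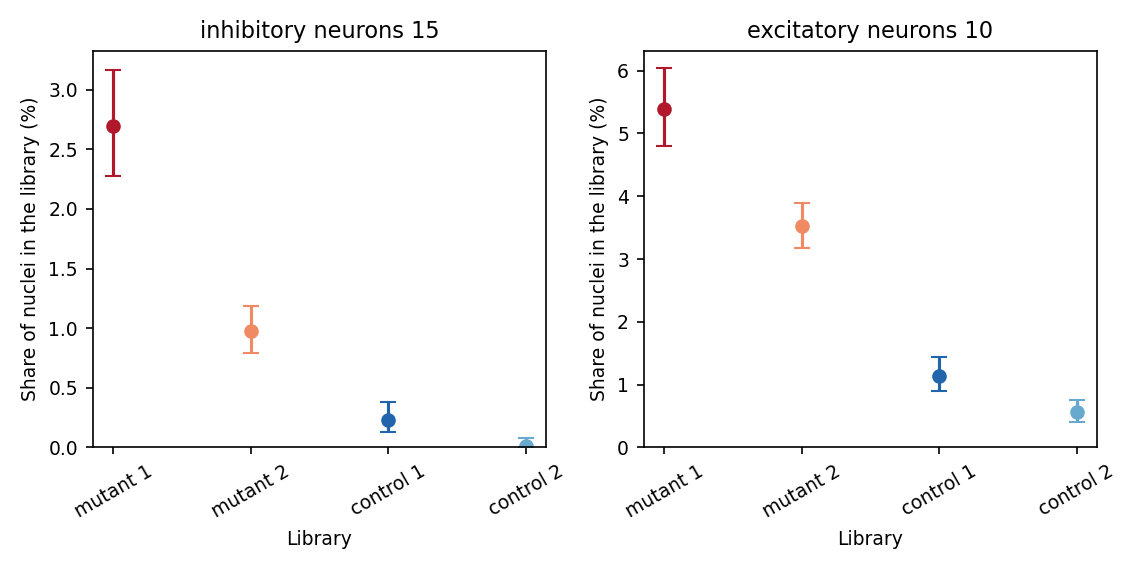
Share of all nuclei (%) in cluster 15 and in excitatory neurons 10 for each library, with exact binomial 95% intervals as bars (counting error only). Cluster 15 has 2.70% and 0.975% in the mutants and 0.232% and 0.0139% in the controls, and excitatory neurons 10 has 5.39% and 3.52% against 1.14% and 0.556%.

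Transcript levels within the cluster could not be tested between genotypes, since 1 control library held a single nucleus, but the 15 nuclei of control 1 could be set beside the mutants. Of 743 transcripts with a mean of at least 200 CPM, 17 (2.29%) were more than 2-fold above both mutants in control 1 and 21 (2.83%) more than 2-fold below. The same count was 0 and 0 for mutant 1 against the others, and 1 and 4 for mutant 2. The 15 nuclei hold far fewer UMIs than either mutant sum and lay wholly in subgroup B. Compared only with mutant 1 nuclei of that subgroup, 8 of the 17 and 15 of the 21 still differed more than 2-fold.

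*Homer1*, which encodes a postsynaptic scaffold protein, had the highest ratio, 812 CPM (111 UMIs, 95% counting interval 668 to 977 CPM) in control 1 against 243 and 133 CPM in mutants 1 and 2. Within subgroup B, mutant 1 had 185 CPM, so the *Homer1* difference remained there. *Efna5* was at 907 CPM against 316 and 121 CPM, but at 527 CPM in the subgroup B nuclei of mutant 1. *Lrp1b*, an LDL receptor family gene, was at 1075 CPM against 287 and 262 CPM, and at 419 CPM in the same subgroup.

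On the low side, *Pde1a*, which encodes a calmodulin-dependent phosphodiesterase, had 43.9 CPM (6 UMIs) in control 1 against 480 and 677 CPM, and 225 CPM in the same subgroup of mutant 1. *Grm8* had 36.6 CPM (5 UMIs) against 325 and 252 CPM, and 129 CPM in the same subgroup. None of the GABAergic, immediate early or Wnt signalling transcripts was abundant enough to be compared. These are differences between 1 mouse and 2 others, with no test.

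Bulk RNAseq, which did not enter the clustering, was used to ask whether the 30 transcripts most enriched in cluster 15 followed the nuclei counts. In whole tissue, fewer cells of a type and less RNA per cell cannot be told apart, and most of these transcripts also occur in other clusters. Of the 30, 28 were in the bulk annotation and 27 passed the filter on low counts. None was more than 3-fold higher at an adjusted p below 0.05 in edgeR's quasi-likelihood test (background 0.0193% of 20687 genes) and none lower (background 0.198%). DESeq2 also gave 0 in each direction, and 8 of the 27 had an unadjusted p below 0.05 in edgeR (background 18.8%). The median log2 fold change of the 27 was 0.02, against 0.01 for all genes tested, and 15 were above 0. Both mutants lay above both controls for 10 of the 27 (background 25.7%) and below for 8 (background 25.2%).

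At any fold, 1 of the 27 passed: *Cntnap5a*, with 17.7 and 16.2 CPM in mutants and 35.9 and 38.3 CPM in controls. It fell by 1.13 on the log2 scale (SE 0.09, edgeR quasi-likelihood Benjamini-Hochberg adjusted p 0.0206), where the background of genes lower at any fold was 1.01%. *Cntnap5a* was also high in DGCs (1116 CPM), and the DGC transcript *Prox1* fell in the same libraries, from 164 and 174 CPM in controls to 32.2 and 18.9 CPM in mutants (log2 fold change -2.73, edgeR adjusted p 0.0244). The part of DGCs in the *Cntnap5a* difference was not tested. DESeq2 passed 6 of the 27 at any fold, where it passed 7.69% of all genes, and edgeR passed none of the 27 and no gene at all once either control library was left out.

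*Ntng1* had 32.8 and 23.8 CPM in the bulk mutants and 38.4 and 31.7 CPM in the controls, and the groups overlapped (log2 fold change -0.31, SE 0.18, edgeR adjusted p 0.433). DGC nuclei also held *Ntng1* (468 CPM). Cluster 15 supplied 23.0%, 9.73%, 2.84% and 0.268% of *Ntng1* UMIs in the nuclei of mutant 1, mutant 2, control 1 and control 2. The part of DGCs in the bulk *Ntng1* level was not tested. Bulk *Qrfpr* was at 0.626 and 0.543 CPM in mutants against 0.425 and 0.477 CPM in controls (log2 fold change 0.37, SE 0.33, edgeR adjusted p 0.616). In the nuclei libraries, by contrast, *Qrfpr* over all nuclei was at 13.2 and 4.41 CPM in mutants and at 3.13 and 1.53 CPM in controls. *Chrm3* (80.8 and 80.3 against 58.8 and 64.6 CPM, edgeR adjusted p 0.0651) and *Cbln4* (13.1 and 12.8 against 9.75 and 7.71 CPM, edgeR adjusted p 0.144) had both mutants above both controls without passing the test. Bulk replicate 2 of each genotype carried *Xist* at 231 and 518 CPM and the Y-linked *Ddx3y* at 0.354 and 0.343 CPM, whereas replicate 1 had *Xist* at 1.44 and 1.04 CPM and *Ddx3y* at 54.2 and 58.2 CPM. The methods give male mice for all libraries, so replicate 2 goes against that description in both genotypes.

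**Figure D5:**
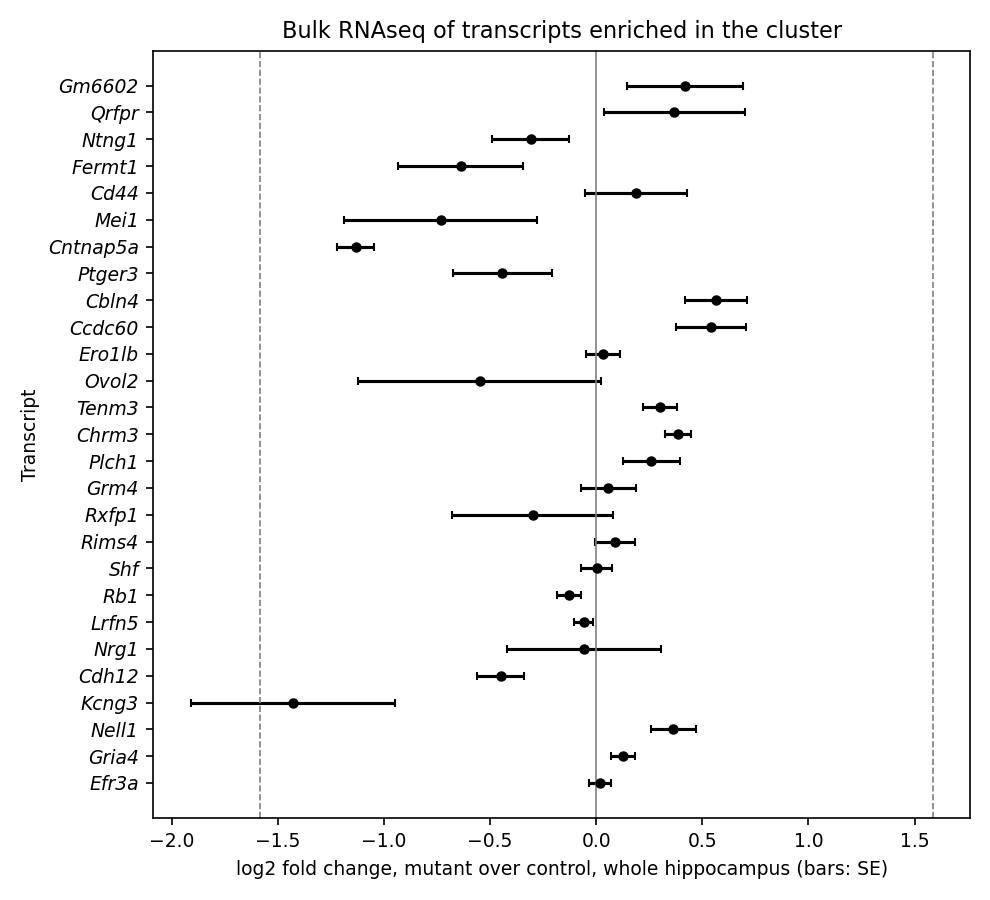
Log2 fold change of mutant over control in bulk RNAseq for the 27 tested transcripts among the 30 most enriched in cluster 15, with SE as bars. Dashed lines mark 3-fold; *Cntnap5a*, at -1.13, is the transcript that passed the test at any fold, and 15 of the 27 lie above 0.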

How the data were processed

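Per the labels and the methods, nuclei of both hippocampi of 1 male mouse per library were purified on iodixanol and prepared with the 10x Chromium 3′ kit. The authors made the nuclei counts with Cell Ranger 3.1.0 on an mm10 pre-mRNA index and labelled clusters with Monocle 3 after batch correction; the deposited UMI counts were used as they stand, with those labels. The authors' bulk expected counts came from RSEM 1.3.0 with Bowtie2 2.2.9 on mm10 and were rounded here; their deposited normalized matrix, a signal scaled across libraries, served for 1 alternative. Expected count totals were 56002400 to 79576200 and UMI totals 26307081 to 76486132 per library.

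UMIs were summed per library and cluster and scaled to CPM; means took libraries with at least 10 nuclei. Transcripts were ranked by the ratio of the cluster mean to the highest other mean among those with at least 50 CPM. The first 20 by that ratio, the members of 34 lists (26 of cell types), and the 5 highest and lowest of control 1 could be named; subgroup leaders were taken in order of their ratio, and *Dcc* and *Tenm3* and the pairwise examples were chosen from their tables after the values were seen. Subgroups came from Leiden clustering (resolution 0.6, 1500 variable genes, 15 components). Nuclei per cluster and bulk counts were tested with edgeR 4.0.16 (quasi-likelihood, Benjamini-Hochberg; bulk with TMM and filterByExpr), with DESeq2 1.42.0 and limma 3.58.1 as alternatives, in R 4.3.3; scripts were tested on simulated data. Other steps used Python 3.11.15 with scanpy 1.11.5 and its Scrublet. Replicates are mice, but p-values rest on 2 per genotype. Control 2 had 1 nucleus, below the minimum of 3, so genotypes were not tested within the cluster. Members and lists were chosen with earlier results of these data known. Gene coordinates are those of GENCODE on GRCm38/mm10.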

Additional observations from a re-analysis of the deposited data

How the results depend on the processing

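The log2 fold change of cluster 15 nuclei between genotypes (3.89) stayed positive in every alternative run. It passed the threshold with DESeq2 (3.91, adjusted p 0.0245) and with the replicate block (4.46, adjusted p 0.0247), and otherwise did not. Leaving out 1 library gave 2.97 to 6.88 (edgeR adjusted p 0.0730 to 0.968): 2.99 without mutant 1, 4.46 without mutant 2, 6.88 without control 1 and 2.97 without control 2, the lone library of a genotype being assumed to vary like the others. The value was 3.31 against nuclei other than DGCs, 3.06 against neuronal nuclei other than DGCs, 3.28 with TMM scaling and 3.85 without nuclei marked by Scrublet. Chosen after seeing the data, nuclei assigned by best matching profile gave 3.87 and the crossed replicate block 4.27 (edgeR adjusted p 0.242 and 0.547). The correlation of replicate differences between genotypes was -0.128 over 21 clusters and 0.05 over 20687 bulk genes. Such a correlation over all genes cannot show that the libraries were unpaired, and no source says what a shared number marks. In bulk the number did go with the *Xist* and *Ddx3y* levels of both genotypes. The main bulk test held no term for it, and with the replicate block the genes passing at any fold went from 250 to 94. The cause of the differences between these settings was not tested.

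The bulk median of the enriched transcripts (0.02) moved to -0.14 with 15 transcripts and lay between -0.03 and 0.03 when 1 library was left out; it was 0.02 with the replicate block, where 1 transcript passed at any fold, as without it. The number passing at any fold was 6 with DESeq2, 6 with no filter on low counts, 0 with limma and 0 to 7 when 1 library was left out (7 without mutant 1, 3 without mutant 2, 0 without either control), while the share of all genes passing moved from 1.21% to 7.69%, 6.46%, 0.0338% and 0 to 8.61%. The number of transcripts more than 3-fold lower was 0 to 1 when 1 library was left out (1 without mutant replicate 1), and the number higher was 0 in each fit. Genotypes were not tested within cluster 15, so the 7 alternatives listed for that test were not run. Subgroups depended on the resolution, chosen after seeing the data: 3 at 0.3 and 6 at 1.0, with the 15 control 1 nuclei together in 1 subgroup at each. Thinning to 1500 UMIs lowered shares of nuclei with *Qrfpr* and *Slc17a7*; *Slc17a7* was then found in 19.6%, 20.6% and 6.67% of nuclei in mutant 1, mutant 2 and control 1. Counts of 15 and 1 nuclei limit every control value of the cluster.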
